A study of Rattus norvegicus with 20 samples.

Results

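The comparison described here set the livers of rats given hydrocortisone together with BGZ_L powder against those of rats given the vehicle. It contrasted 10 of the 20 RNA-seq libraries of the study, 5 of the group labelled KYDS+BGZ_L and 5 of the group labelled CON. All 32850 named genes of 32883 in the table were taken, and 11869 identifiers were expressed highly enough to be tested. All rats were male, and the labels give 5 rats and 5 liver libraries per group. CON rats received 0.5% sodium carboxymethylcellulose (CMC-Na), a thickener used to carry drugs by mouth. KYDS+BGZ_L rats received hydrocortisone (25 mg/kg) together with the powder labelled BGZ_L (0.9 g/kg). The other groups had 5 rats each and received hydrocortisone alone (KYDS, 25 mg/kg) or BGZ_L alone (0.9 g/kg). They are used here to place the combined treatment. Their libraries also entered the scaling, the expression filter and the estimate of spread behind every fold change test. The title of the series names Psoraleae Fructus, the dried fruit of a legume used in Chinese medicine, and kidney-yang deficiency syndrome, which is the disease state that the labels give to the hydrocortisone groups. The labels do not say what BGZ_L stands for. The sources used here do not give strain, age, length of treatment or the time of day at which livers were collected.

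Glucocorticoids act on hepatocytes through a nuclear receptor that switches on genes of glucose production and amino acid breakdown and damps inflammatory genes. The liver also holds a circadian clock, a feedback loop in which the activators encoded by Arntl and Clock drive the Per, Cry and Nr1d genes, whose products in turn repress the activators or their targets, and the loop sets daily rhythms in output genes such as Dbp. Plant compounds that reach hepatocytes can induce drug-metabolising enzymes through the aryl hydrocarbon receptor (AHR), the receptors CAR and PXR, and the stress-sensing factor NRF2.

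Values are in TPM, the abundance of a gene's transcripts relative to all transcripts of its library, after a scaling between libraries. Fold changes are log2 values ± SE on log2(scaled TPM + 0.5) from limma, and a gene is said to have passed, risen or fallen when its two-sided limma p, adjusted by Benjamini-Hochberg over all 11869 genes, was under 0.05. The libraries differed in how much of their signal came from the 13 mitochondrially encoded genes. That share was 75.1% ± 10.2 (SD, n = 5) in CON and 48.9% ± 17.7 (SD, n = 5) in KYDS+BGZ_L libraries, a difference of -26.2 percentage points (exact permutation p = 0.0238, two-sided, and 0.0476 after adjustment over 4 library measures). Scaling factors were 0.774 ± 0.424 (SD, n = 5) in CON and 1.29 ± 0.334 (SD, n = 5) in KYDS+BGZ_L libraries (exact permutation p = 0.0714), and CON 2 had the lowest factor, 0.231. The summed scaled TPM of 9 hepatocyte markers was 5978 to 10553 (median 7732) in CON and 9952 to 52332 (median 26244) in KYDS+BGZ_L libraries. These sums overlapped between the groups and were not tested. Because the mitochondrial share differed between the groups, a fit adjusted for the balance of nuclear and mitochondrial TPM in each library (its log2 ratio) was also made. The total count and those of most lists described below are given from it too. The part of these library measures in the results was not tested beyond that fit. In bulk liver, fewer cells of a type and less RNA per cell cannot be told apart. P-values from limma measure the spread between rats within all 4 groups of the study, which were fitted together.

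Of the 11869 genes, 1364 passed (11.5%), 687 higher (5.79%) and 677 lower (5.70%), and 1117 of them differed by at least 2-fold. The median of all genes was 0.03. Without scaling between libraries 1565 genes were higher and 88 lower around a median of all genes of 0.64, and with TPM recomputed over nuclear genes 126 were higher and 240 lower around a median of -0.23. In a fit of the 10 libraries alone the count was 1243, and 1083 of those genes were among the 1364. In the balance-adjusted fit the count was 89, and 88 of those genes were among the 1364. Single libraries weighed on the count, which was 387 without KYDS+BGZ_L 4, 401 without KYDS+BGZ_L 1 and 679 without CON 2. The genes called under every alternative and with every library of the comparison left out numbered 57, of which 38 were higher and 19 lower.

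**Figure D1:**
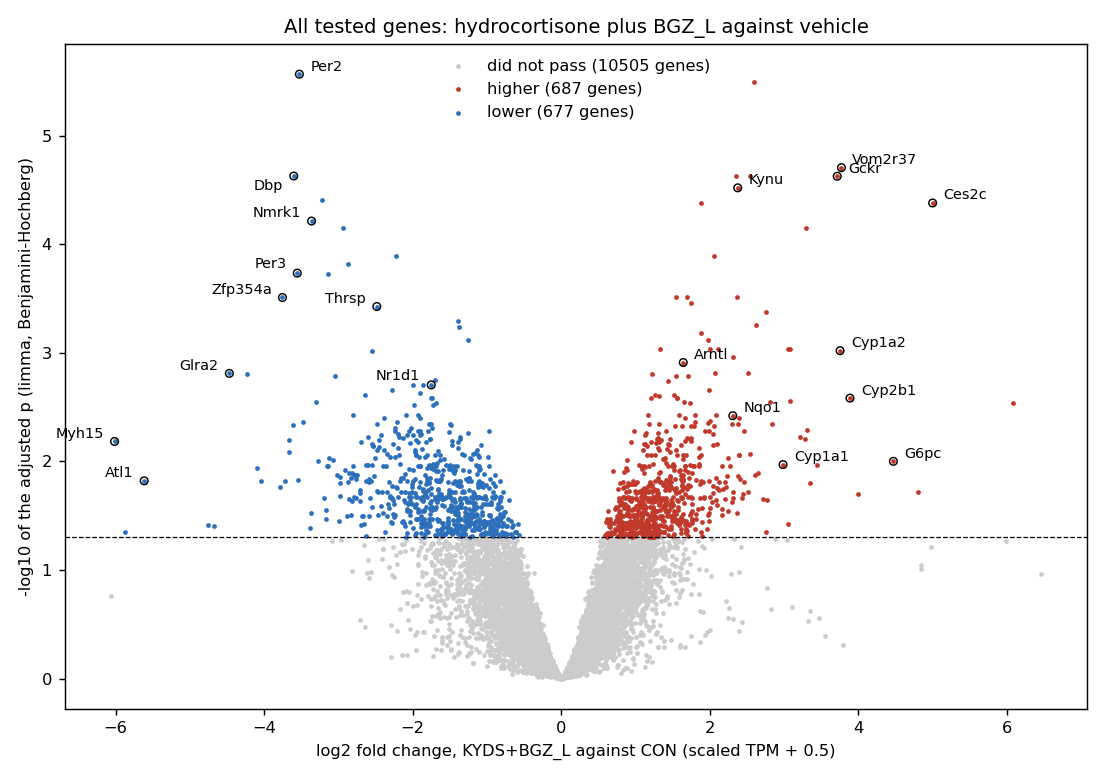
Each point is 1 of 11869 tested genes, with the log2 fold change of KYDS+BGZ_L against CON on the x axis and the -log10 of the limma adjusted p on the y axis. The dashed line is the threshold of 0.05, and 687 genes lie above it on the right and 677 on the left, with the clock gene Per2 at the smallest adjusted p of all (2.7e-06).

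The gene with the smallest adjusted p, Per2, belonged to the circadian clock, where 8 of 13 tested clock repressors and output genes fell and 0 rose, against 5.70% of all genes lower. Of the 13 tested, 7 had every treated liver below every control and 0 had every treated liver above. Among all genes these shares were 5.10% and 5.44%. Per2, Per3, Dbp, Tef, Nr1d1, Ciart, Nr1d2 and Per1 fell, by 1.15 to 3.60 log2, while the activator gene Arntl (also called Bmal1) rose. The list's median was -1.23, where that of all genes was 0.03. The 4 genes that fell most among them, Per2, Per3, Dbp and Nr1d1, were also lower than with hydrocortisone alone.

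Stretches of promoter are shown for the clock genes because the loop acts through short DNA elements near their start sites. RefSeq promoter entries of the build GRCr8 matched 16 of 19 clock genes, and the 250 bases before the start were searched on both strands for the E-box CACGTG, bound by the Arntl and Clock products, the related sequence CACGTT, and the D-box TTANGTAA, bound by the Dbp and Tef products and their repressor Nfil3. Capitals mark every match, read 5′ to 3′ on the gene's strand. Per2 (chr9:99496994-99497243, minus strand) holds a D-box that begins 192 bases before the start and a CACGTT at 62 bases. Nr1d1 (chr10:84229455-84229704, minus strand, the first of its entries) holds an E-box at 191 bases. Tef (chr7:115206577-115206826, plus strand) holds an E-box at 198 bases. Ciart (chr2:186112247-186112496, minus strand) holds 3 E-boxes, at 93, 35 and 21 bases.
Per2: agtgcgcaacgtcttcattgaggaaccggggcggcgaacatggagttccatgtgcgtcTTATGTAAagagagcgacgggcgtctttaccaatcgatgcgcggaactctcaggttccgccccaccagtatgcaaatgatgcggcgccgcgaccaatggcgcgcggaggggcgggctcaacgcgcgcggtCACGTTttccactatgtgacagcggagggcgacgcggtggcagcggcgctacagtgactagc
Nr1d1: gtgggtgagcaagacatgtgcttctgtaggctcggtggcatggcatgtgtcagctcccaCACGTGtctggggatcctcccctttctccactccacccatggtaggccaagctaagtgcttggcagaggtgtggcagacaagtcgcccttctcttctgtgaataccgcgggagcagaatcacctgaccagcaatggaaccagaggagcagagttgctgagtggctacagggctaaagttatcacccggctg
Tef: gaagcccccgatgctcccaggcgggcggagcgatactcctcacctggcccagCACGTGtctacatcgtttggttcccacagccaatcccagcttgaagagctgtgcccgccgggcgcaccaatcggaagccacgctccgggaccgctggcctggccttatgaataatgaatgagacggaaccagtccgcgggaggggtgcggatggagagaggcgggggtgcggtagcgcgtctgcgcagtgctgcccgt
Ciart: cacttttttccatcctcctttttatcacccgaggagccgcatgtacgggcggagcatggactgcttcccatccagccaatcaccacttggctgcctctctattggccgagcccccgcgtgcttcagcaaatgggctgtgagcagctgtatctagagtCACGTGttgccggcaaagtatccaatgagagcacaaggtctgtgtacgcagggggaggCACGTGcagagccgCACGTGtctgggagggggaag
An E-box was found in 3 of the 8 clock genes that fell (Nr1d1, Tef and Ciart) and in 5.59% of all 33469 promoter entries. It was also found in 1 of the 5 clock genes that had a promoter entry and did not pass. Bhlhe41, too low to be tested, held an E-box as well. A clock gene was counted if any of its entries matched, and Nr1d1 had 2 entries, while the shares of all are per entry. CACGTT was found in 2 of the 8 (Per2 and another entry of Nr1d1), in 1 of the 5 that did not pass (Cry2) and in 4.07% of all. The D-box was found in 1 of the 8, in 0 of the 5 and in 2.04% of all. A match describes the letters of this window and shows no binding.

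The Per genes encode the repressors of the loop. Per2 (ENSRNOG00000020254) was at 15.0, 13.5, 6.58, 19.4 and 15.0 scaled TPM in CON 1 to 5 and at 0.844, 0.872, 0.436, 0.48 and 0.89 in KYDS+BGZ_L 1 to 5. Every treated liver was below every vehicle liver, and the log2 fold change was -3.53 ± 0.30 (limma adjusted p = 2.7e-06). Per3 went from 19.0, 8.17, 13.7, 25.0 and 34.8 to 1.12, 1.64, 0.987, 0.868 and 0.875, again with no overlap (-3.55 ± 0.47, limma adjusted p = 1.8e-04). Per1, a gene that glucocorticoids are known to induce, was low throughout, at 0.601, 0.994, 1.07, 2.28 and 1.05 in CON and 0.318, 0.0882, 0.208, 0.162 and 0.195 in KYDS+BGZ_L libraries. It fell by 1.23 ± 0.33 (limma adjusted p = 0.0236), and all 5 treated livers were below all 5 controls. Ciart, which encodes a further repressor of the activator pair, was at 1.32, 0.648, 0.897, 2.11 and 1.14 and fell to 0.0168, 0, 0, 0 and 0.0703 (limma adjusted p = 0.0214). Cry1 did not pass (log2 fold change -0.02 ± 0.47, limma adjusted p = 0.985).

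Dbp encodes a transcription factor that carries the rhythm to metabolic genes. It was at 62.8, 23.9, 37.4, 46.0 and 61.2 in CON 1 to 5 and at 3.61, 3.67, 2.58, 2.81 and 3.14 in KYDS+BGZ_L 1 to 5. The groups were far apart and the treated livers nearly alike (-3.60 ± 0.38, limma adjusted p = 2.4e-05). Tef, a related factor, went from 15.8, 13.6, 14.0, 12.4 and 12.6 to 6.90, 5.80, 3.80, 4.78 and 3.89 (-1.38 ± 0.20, limma adjusted p = 5.8e-04). Nr1d1, the nuclear receptor REV-ERBα that represses Arntl, went from 5.64, 4.19, 6.50, 4.79 and 3.16 to 0.626, 1.15, 1.496, 1.67 and 0.625 (-1.75 ± 0.30, limma adjusted p = 0.002). Its relative Nr1d2 fell by 1.15 ± 0.30 (limma adjusted p = 0.0214), and CON 2, at 0.907, lay among the treated livers. Arntl, at 0.0265, 0.605, 0.289, 0.0633 and 0.0727 in CON, was at 1.67, 2.01, 1.68, 1.46 and 1.38 in KYDS+BGZ_L libraries, and rose by 1.64 ± 0.26 (limma adjusted p = 0.0012). Nfil3, the repressor at D-boxes, did not pass (1.14 ± 0.57, limma adjusted p = 0.197). Tef, Nr1d2, Ciart, Cry1 and Nfil3 were chosen after their values were seen.

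**Figure D2:**
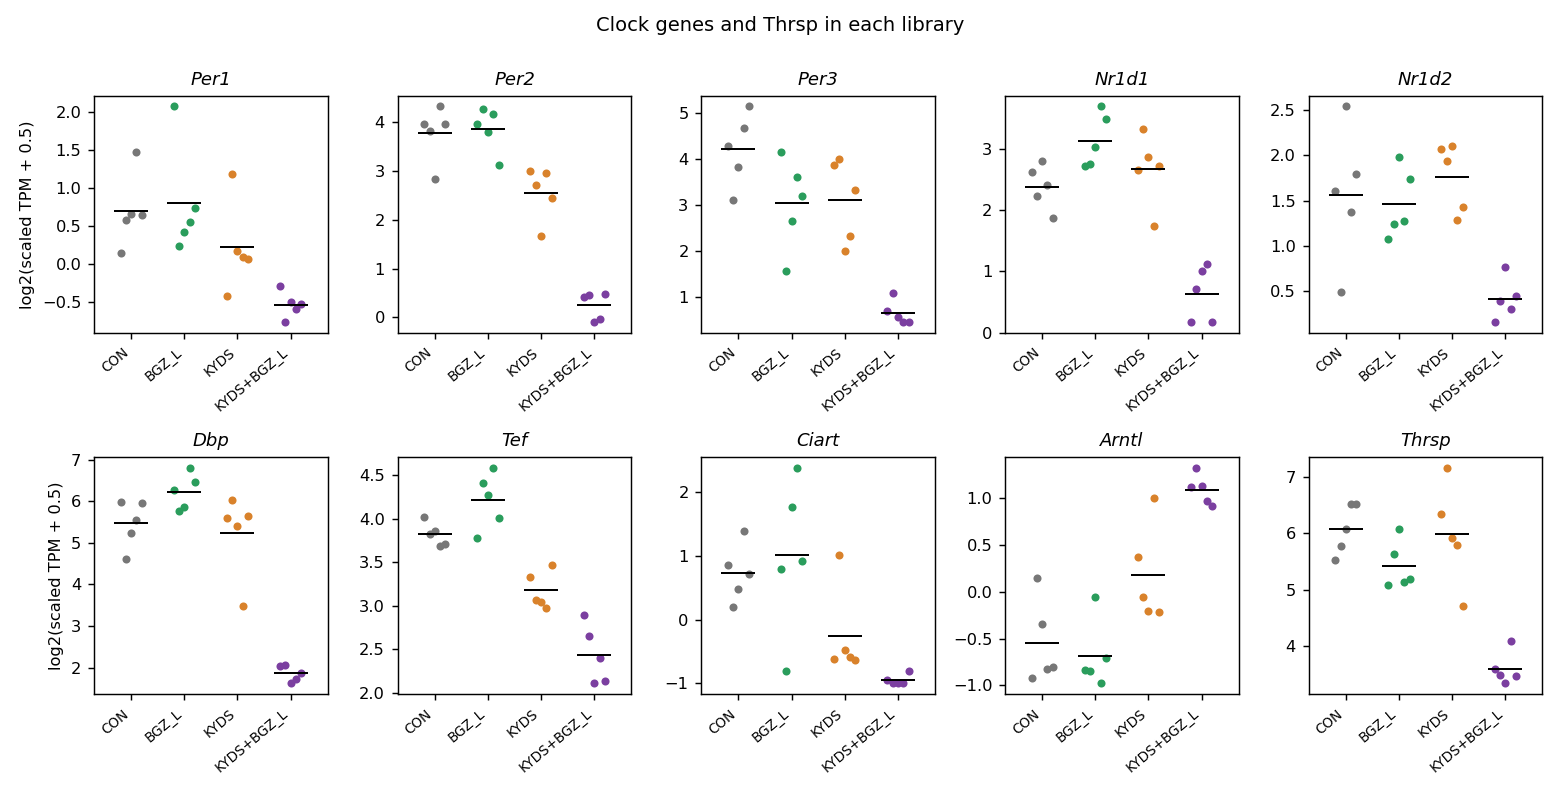
Points are single livers (n = 5 per group) as log2(scaled TPM + 0.5), with a panel per gene and a line at each group mean. KYDS+BGZ_L livers sit apart from all CON livers in 9 of the 10 panels, the exception being Nr1d2, and lie above them for Arntl and below them for the others.

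The single agents are set beside the combination against the same 5 vehicle rats. Per2 changed by -1.22 ± 0.30 with hydrocortisone (limma adjusted p = 0.0254) and by 0.09 ± 0.30 with BGZ_L, Dbp by -0.23 ± 0.38 and 0.76 ± 0.38, and Nr1d1 by 0.28 ± 0.30 and 0.75 ± 0.30. The difference itself was tested by setting KYDS+BGZ_L against KYDS. There Dbp was lower by 3.37 ± 0.38 (limma adjusted p = 3.4e-04), Per2 by 2.31 ± 0.30 (0.0014), Nr1d1 by 2.03 ± 0.30 (0.0041) and Per3 by 2.45 ± 0.47 (0.0389). The other 4 clock genes that fell against vehicle, Tef, Ciart, Nr1d2 and Per1, did not pass against KYDS. Without KYDS+BGZ_L 1 or KYDS+BGZ_L 4 the count of clock genes lower than vehicle was 5, as it was in the balance-adjusted fit, and without scaling 3 were lower and 1 higher. Per2, Per3 and Dbp passed under all 11 alternatives and with each library left out.

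Of 6 tested AHR pathway genes 4 rose (Cyp1a2, Cyp1a1, Nqo1 and Ugt1a6) and 0 fell, with a median of 2.20, the highest of the 43 lists with a tested member, against 5.79% of all genes higher. Of 13 NRF2 pathway genes 4 rose (Akr7a3, Nqo1, Ephx1 and the gene of NRF2 itself, Nfe2l2), and of 15 genes of CAR, PXR and their targets 5 rose (Ces2c, Cyp2b1, Cyp2b2, Cyp2b3 and Gstm1), with 0 lower in either list. The other 9 NRF2 genes and 10 of the CAR and PXR list did not pass. Nqo1 stands in both the AHR and the NRF2 list.

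Cyp1a2 (ENSRNOG00000016173), the main hepatic cytochrome P450 of the AHR battery, was at 46.3, 11.2, 24.1, 60.9 and 44.9 scaled TPM in CON and at 814, 109.6, 339, 1515 and 364 in KYDS+BGZ_L libraries. The lowest treated liver, KYDS+BGZ_L 2, was above the highest control, CON 4 (log2 fold change 3.75 ± 0.58, limma adjusted p = 9.6e-04). Cyp1a1, the most inducible member of the family, went from 1.05, 0.735, 0.0723, 3.19 and 2.80 to 37.9, 2.43, 8.10, 32.0 and 12.7. It rose by 2.99 ± 0.67 (limma adjusted p = 0.0107), with KYDS+BGZ_L 2 among the controls. Nqo1, a quinone reductase, was at 0.53, 0.951, 0.55, 0.641 and 2.29 in CON and 16.8, 4.16, 5.13, 9.81 and 2.68 in KYDS+BGZ_L livers (2.31 ± 0.43, limma adjusted p = 0.0038). Its groups did not overlap, though KYDS+BGZ_L 5 at 2.68 lay close to CON 5 at 2.29. The glucuronosyltransferase gene Ugt1a6 rose by 2.08 ± 0.49 (limma adjusted p = 0.0143). Reads of Ugt1a isoforms can be shared, since they have their later exons in common, so its value is uncertain.

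Against the same vehicle rats, hydrocortisone alone gave 0.61 ± 0.58 for Cyp1a2, -0.76 ± 0.67 for Cyp1a1 and -0.19 ± 0.43 for Nqo1, and BGZ_L alone gave 1.17 ± 0.58, 1.60 ± 0.67 and 0.94 ± 0.43. None of these 6 values passed. The combined treatment was higher than hydrocortisone alone by 3.14 ± 0.58 for Cyp1a2 (limma adjusted p = 0.0323), 3.75 ± 0.67 for Cyp1a1 (0.0253) and 2.50 ± 0.43 for Nqo1 (0.017). Against BGZ_L alone it was higher by 2.59 ± 0.58 for Cyp1a2 (limma adjusted p = 0.0068) and 1.37 ± 0.43 for Nqo1 (0.0325), while Cyp1a1 did not pass (1.38 ± 0.67, 0.156).

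Akr7a3, an aldehyde reductase that detoxifies aflatoxin aldehydes, was at 4.80, 6.65, 11.1, 15.8 and 14.2 in CON and 91.2, 56.5, 53.3, 217 and 29.3 in KYDS+BGZ_L livers, with no overlap (2.82 ± 0.50, limma adjusted p = 0.0028). Ephx1, a microsomal epoxide hydrolase, rose by 1.69 ± 0.53 (limma adjusted p = 0.0433) and Nfe2l2 by 0.94 ± 0.25 (0.0228).

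Ces2c, a carboxylesterase gene, had the highest fold change that the naming rule took. It was at 0.645, 0.648, 0.188, 3.62 and 1.69 in CON and at 71.8, 26.9, 41.3, 112 and 28.7 in KYDS+BGZ_L libraries (5.00 ± 0.58, limma adjusted p = 4.2e-05), and hydrocortisone alone gave 4.26 ± 0.58. Cyp2b1, the phenobarbital-type cytochrome, was at 3.07, 9.55, 0.781, 6.37 and 5.23 and 209, 27.5, 61.7, 87.5 and 39.4 (3.89 ± 0.68, limma adjusted p = 0.0026). Hydrocortisone alone gave 1.77 ± 0.68 for it (limma adjusted p = 0.119), and the difference of 2.12 ± 0.68 between the 2 treatments did not pass (0.664). Cyp2b2 rose by 3.21 ± 0.64 (limma adjusted p = 0.006), Cyp2b3 by 1.91 ± 0.46 (0.0154) and the glutathione transferase Gstm1 by 1.62 ± 0.47 (0.034). Cyp2b1 and Cyp2b2 are close copies of each other, so reads may be split between them. KYDS+BGZ_L 1 and 4 were the highest 2 livers for Cyp1a1, Cyp1a2, Nqo1, Cyp2b1 and Cyp2b2, and also had the lowest mitochondrial shares of the 5, 26.6% and 35.1%. In the balance-adjusted fit 1 AHR gene, 0 NRF2 genes and 1 gene of the CAR and PXR list passed, without scaling 4, 7 and 8 were higher, and without either KYDS+BGZ_L 1 or KYDS+BGZ_L 4 the counts were 3, 2 and 3. The NRF2 count was also 2 without CON 1. Cyp1a2 and Ces2c passed under all alternatives and with each library left out. Ugt1a6, Cyp2b3, Gstm1, Ephx1 and Nfe2l2 were chosen after their values were seen.

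**Figure D3:**
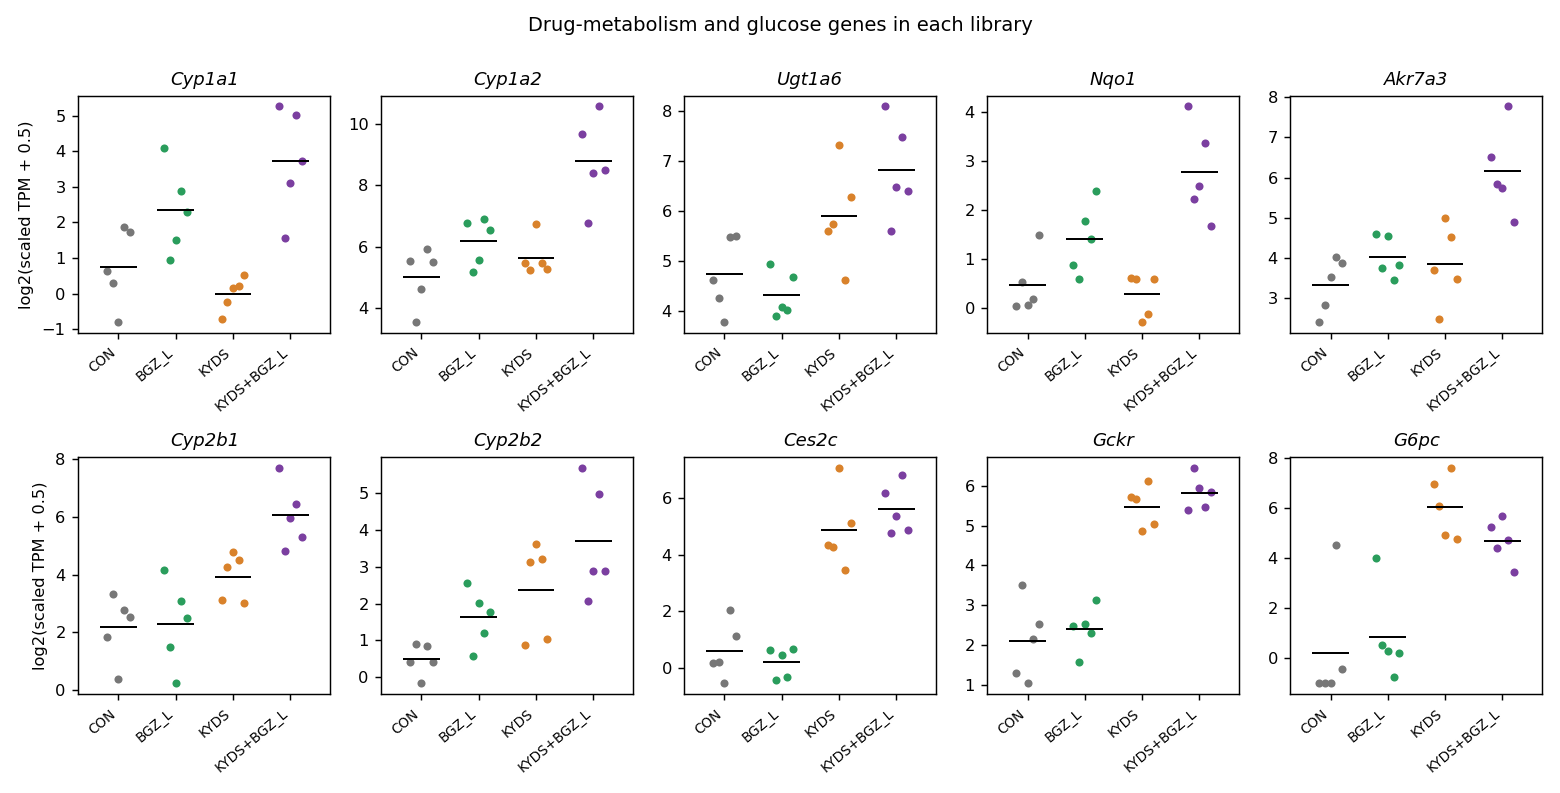
Points are single livers (n = 5 per group) as log2(scaled TPM + 0.5), with a panel per gene and a line at each group mean. For Cyp1a1, Cyp1a2, Nqo1 and Akr7a3 the KYDS+BGZ_L mean stands above all 3 other groups, and for Ces2c, Gckr and G6pc the means of both hydrocortisone groups stand above the other 2.

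Of the listed targets of the glucocorticoid receptor none passed as higher with the combined treatment. Of 22 tested, 0 rose and 6 fell (Nfkbia, Tsc22d3, Tat, Per1, Ddit4 and Sgk1), against 5.79% and 5.70% of all genes. Their median was -0.57, and 0.28 without scaling between libraries, where 2 rose and 0 fell. Nfkbia, which encodes the inhibitor of NF-κB, was at 15.0, 12.1, 14.2, 16.6 and 14.4 in CON and 5.92, 4.86, 7.47, 5.40 and 5.44 in KYDS+BGZ_L livers (-1.25 ± 0.19, limma adjusted p = 7.6e-04). Tsc22d3, the gene of the glucocorticoid-induced leucine zipper, went from 5.72, 4.41, 8.001, 8.39 and 6.10 to 2.59, 1.28, 2.93, 2.01 and 1.67 (-1.44 ± 0.33, limma adjusted p = 0.0128). Groups did not overlap for either gene, and without scaling their fold changes were -0.39 and -0.67. Sgk1, a kinase gene chosen after its values were seen, fell by 1.38 ± 0.42 (0.0384), with CON 2 and CON 3 at 12.7 and 17.8 and the other controls at 3.27 to 3.95. Ddit4, an inhibitor of the growth regulator mTORC1, fell by 1.05 ± 0.29 (0.0247).

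Fkbp5, a receptor co-chaperone, was at 0.936, 1.43, 2.27, 2.39 and 0.963 in CON and 0.771, 0.637, 0.935, 0.966 and 0.695 in KYDS+BGZ_L livers and did not pass (-0.63 ± 0.25, limma adjusted p = 0.102). Dusp1, a phosphatase gene, did not pass either (0.74 ± 0.42, limma adjusted p = 0.252), while hydrocortisone alone gave 2.15 ± 0.42 (0.0086). The difference between the 2 treatments was -1.40 ± 0.42 and did not pass (0.48). The receptor gene Nr3c1 was at 2.83, 1.47, 2.17, 1.76 and 1.78 in CON and 2.48, 1.91, 1.96, 3.83 and 2.29 in KYDS+BGZ_L livers (0.25 ± 0.26, limma adjusted p = 0.563). Hsd11b1, whose enzyme regenerates active glucocorticoid inside the cell, rose by 1.25 ± 0.37 (limma adjusted p = 0.0341). The count of receptor targets that fell was 3 without KYDS+BGZ_L 1 and 3 in the balance-adjusted fit.

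Genes of glucose metabolism passed in both directions. Of 15 tested gluconeogenesis genes 3 rose and 4 fell, of 13 of glucose uptake and glycolysis 3 rose and 2 fell, and of 11 of glycogen metabolism 2 rose and 1 fell, with 5.79% of all genes higher and 5.70% lower. Gckr (ENSRNOG00000048874), a regulatory protein of hepatic glucose use, was at 1.98, 10.9, 1.56, 3.95 and 5.25 in CON and at 41.8, 87.0, 61.4, 43.9 and 56.8 in KYDS+BGZ_L livers. No liver overlapped (3.72 ± 0.40, limma adjusted p = 2.4e-05), and hydrocortisone alone gave 3.37 ± 0.40.

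G6pc, the catalytic subunit of glucose-6-phosphatase and the last step of glucose release, was listed at 0 in CON 1 to 3, at 22.7 in CON 4 and at 0.236 in CON 5. It was at 36.7, 20.6, 50.3, 26.0 and 10.3 in KYDS+BGZ_L livers, so that CON 4 lay among the treated livers (4.47 ± 0.98, limma adjusted p = 0.00999). Pc, the pyruvate carboxylase that opens gluconeogenesis, went from 17.8, 12.6, 9.82, 13.1 and 18.0 to 36.1, 31.1, 27.4, 33.9 and 28.6 without overlap (1.14 ± 0.22, limma adjusted p = 0.0055). Pck1, which controls the next step, did not pass (-0.58 ± 0.33, limma adjusted p = 0.255, and 0.35 without scaling). Ppargc1a, a coactivator of fasting genes, was at 5.93, 6.14, 9.66, 7.03 and 4.80 in CON and 0.196, 3.05, 1.41, 0.0988 and 0.679 in KYDS+BGZ_L livers (-2.47 ± 0.63, limma adjusted p = 0.0192). It was lowest in KYDS+BGZ_L 1 and 4, and its call was lost without 2 of the 10 libraries in turn.

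Among enzymes of amino acid use, the transaminase Gpt2 was at 6.90, 7.43, 13.9, 9.65 and 8.85 in CON and 5.08, 2.53, 3.71, 5.69 and 3.41 in KYDS+BGZ_L livers (-1.11 ± 0.24, limma adjusted p = 0.0092), Got1 fell by 1.18 ± 0.33 (0.0263), and the serine dehydratase Sds went from 37.7, 26.7, 42.8, 40.7 and 60.0 to 15.9, 18.7, 4.27, 13.4 and 11.5 (-1.76 ± 0.54, 0.0393). Sds, chosen after its values were seen, was lower than with hydrocortisone alone by 2.83 ± 0.54 (limma adjusted p = 0.0379), but its call against CON was lost with 9 of the 10 libraries left out in turn. Tat, the tyrosine aminotransferase, was at 64.4, 53.4, 51.1, 121 and 96.8 in CON and 40.4, 26.9, 26.5, 48.1 and 31.8 in KYDS+BGZ_L livers (-1.10 ± 0.27, limma adjusted p = 0.0169, and -0.18 without scaling). Hydrocortisone alone gave 0.40 ± 0.27, and the combined treatment was lower than it by 1.49 ± 0.27 (limma adjusted p = 0.0272).

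Kynu, which encodes kynureninase of tryptophan breakdown, moved the other way. It was at 6.73, 10.7, 3.47, 5.53 and 6.72 in CON and at 37.1, 35.6, 31.6, 36.4 and 32.3 in KYDS+BGZ_L livers, a narrow range (2.38 ± 0.26, limma adjusted p = 3.0e-05). Of 21 amino acid degradation genes 3 rose and 4 fell, against 5.79% of all genes higher and 5.70% lower. Without KYDS+BGZ_L 4 the counts were 1 and 1, as they were in the balance-adjusted fit, and without scaling 5 were higher and 0 lower. Among the other glucose genes, the glycogen phosphorylase gene Pygl was at 3.58, 4.28, 3.89, 4.05 and 5.98 in CON and 12.4, 11.7, 8.96, 12.7 and 12.0 in KYDS+BGZ_L livers (1.32 ± 0.20, limma adjusted p = 9.3e-04). Ldha, lactate dehydrogenase A, rose by 2.05 ± 0.42 (0.0071) and Pgm1, a phosphoglucomutase, by 0.83 ± 0.25 (0.0406). Pfkfb1, which sets the level of the glycolytic activator fructose 2,6-bisphosphate, fell by 1.23 ± 0.36 (0.0351). Phkg2, a phosphorylase kinase subunit, fell by 0.84 ± 0.27 (limma adjusted p = 0.0492), but changed by 0.03 without scaling. Without scaling 5 gluconeogenesis genes, 6 of glycolysis and 3 of glycogen were higher and 0 lower. Without KYDS+BGZ_L 4 the counts were 2 higher and 1 lower, 2 and 0, and 1 and 0. In the balance-adjusted fit they were 0 higher and 1 lower, 1 and 0, and 1 and 0.

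Thrsp, a promoter of fat synthesis that answers to thyroid hormone and feeding, was at 45.3, 53.8, 66.5, 90.9 and 91.2 in CON and at 11.5, 10.7, 9.60, 16.4 and 10.6 in KYDS+BGZ_L livers. The groups stood far apart (-2.48 ± 0.35, limma adjusted p = 3.7e-04), whereas hydrocortisone alone gave -0.10 ± 0.35 and BGZ_L alone -0.66 ± 0.35. The combined treatment was lower than hydrocortisone alone by 2.39 ± 0.35 (limma adjusted p = 0.0041). Without scaling its fold change was -1.57 and did not pass (limma adjusted p = 0.0588). Of 16 lipogenesis genes 2 rose and 1, Thrsp, fell, against 5.79% of all genes higher and 5.70% lower, and the list's median was 0.68. Without scaling 7 were higher and 0 lower, without KYDS+BGZ_L 1 or KYDS+BGZ_L 4 none was higher and 1 lower, and without KYDS+BGZ_L 2 the counts were 4 and 1. The balance-adjusted fit had 0 higher and 1 lower. The fatty acid synthase Fasn did not pass (-0.75 ± 0.46, limma adjusted p = 0.305). Elovl5, an elongase, rose by 1.37 ± 0.36 (0.0219).

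Of 26 genes of fatty acid oxidation and of the receptor PPARα 8 rose and 0 fell, against 5.79% of all genes higher and 5.70% lower, with a median of 0.78 (1.66 without scaling). Without scaling 15 were higher, and with TPM over nuclear genes 1. The thioesterase gene Acot2 rose by 1.51 ± 0.33 (limma adjusted p = 0.0106), and Fgf21, a fasting hormone, by 1.43 ± 0.44 (0.0411), with CON 1 at 6.24 and CON 2 at 3.54 within the treated range of 3.43 to 7.52. Cpt1a, which admits fatty acids to mitochondria, did not pass (-0.09 ± 0.41, 0.915). The count of 8 was 2 without KYDS+BGZ_L 1, 3 without KYDS+BGZ_L 4, 5 without CON 5, and 0 in the balance-adjusted fit.

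Bile acid genes had 7 of 20 higher and 0 lower, against 5.79% of all genes higher and 5.70% lower, with a median of 0.69. Without scaling 9 were higher, and with TPM over nuclear genes 2. Cyp8b1, which makes the precursor of cholic acid, was at 3.72, 0.475, 3.01, 2.74 and 4.92 in CON and 26.5, 8.62, 17.6, 48.8 and 7.12 in KYDS+BGZ_L livers without overlap (2.54 ± 0.54, limma adjusted p = 0.0086). Amacr, a racemase of side chain oxidation, went from 58.0, 35.2, 48.4, 39.9 and 72.2 to 159, 154, 125, 229 and 183 (1.75 ± 0.25, limma adjusted p = 3.5e-04). Cyp7a1, the rate-limiting enzyme, did not pass (-0.71 ± 0.65, 0.51, and 0.06 without scaling), and its controls spread from 2.55 to 36.7. The count was 2 without CON 2, KYDS+BGZ_L 1 or KYDS+BGZ_L 4, 4 (with 2 lower) without CON 3, and 1 in the balance-adjusted fit.

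Among membrane lipids, 5 of 26 glycerophospholipid genes rose and 2 fell, and 4 of 21 sphingolipid genes rose and 1 fell, where 5.79% of all genes were higher and 5.70% lower. Without scaling the counts were 7 and 0, and 6 and 0. They were 1 and 0, and 0 and 0, in the balance-adjusted fit. Chka, the choline kinase that starts phosphatidylcholine synthesis, was at 1.91, 1.81, 0.666, 2.605 and 7.45 in CON and 15.5, 16.7, 14.0, 12.9 and 17.8 in KYDS+BGZ_L livers (2.52 ± 0.41, limma adjusted p = 0.0016), and passed with each library left out. Smpd1, the acid sphingomyelinase, rose by 1.79 ± 0.33 (0.0037), the ceramide synthase Cers2 rose by 1.47 ± 0.36 (0.0169), and the sphingomyelin synthase Sgms1 fell by 1.11 ± 0.25 (0.0121). Without KYDS+BGZ_L 1 or 4 there was 1 glycerophospholipid gene higher and 0 lower, and 1 sphingolipid gene in each direction. Without CON 3, 3 glycerophospholipid genes were higher and 0 lower, and without CON 2, 2 sphingolipid genes were higher and 1 lower.

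Of 16 plasma protein genes 9 rose and of 18 acute phase genes 8 rose, with 0 lower in either, against 5.79% of all genes higher and 5.70% lower. The medians were 1.66 and 1.32, and the 2 lists share Fgb. Without scaling 14 and 9 were higher, and with TPM over nuclear genes 2 and 4. Orm1, an acute phase carrier protein that glucocorticoids are known to induce, was at 118, 126, 69.9, 119 and 113 in CON and 1229, 355, 381, 1996 and 791 in KYDS+BGZ_L livers (2.83 ± 0.54, limma adjusted p = 0.0045). Ttr, the thyroid hormone carrier transthyretin, was at 917, 628, 509, 751 and 663 and 9628, 1365, 1971, 11542 and 4217 (2.61 ± 0.61, 0.0134). The fibrinogen chain Fga rose by 2.21 ± 0.54 (0.0156) and prothrombin, F2, by 2.18 ± 0.55 (0.018), while albumin, Alb, chosen after its values were seen, did not pass (1.64 ± 0.59, 0.0715). For Orm1, Ttr and Alb the highest 2 livers were KYDS+BGZ_L 1 and 4, those with the lowest mitochondrial shares. In the balance-adjusted fit 0 plasma protein and 0 acute phase genes passed. The counts were 0 and 1 without KYDS+BGZ_L 1 or KYDS+BGZ_L 4, 1 and 2 without CON 2, 2 and 3 without CON 3, and 2 and 5 without KYDS+BGZ_L 5. The plasma protein count was also 2 without CON 5 and 4 without CON 1.

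**Figure D4:**
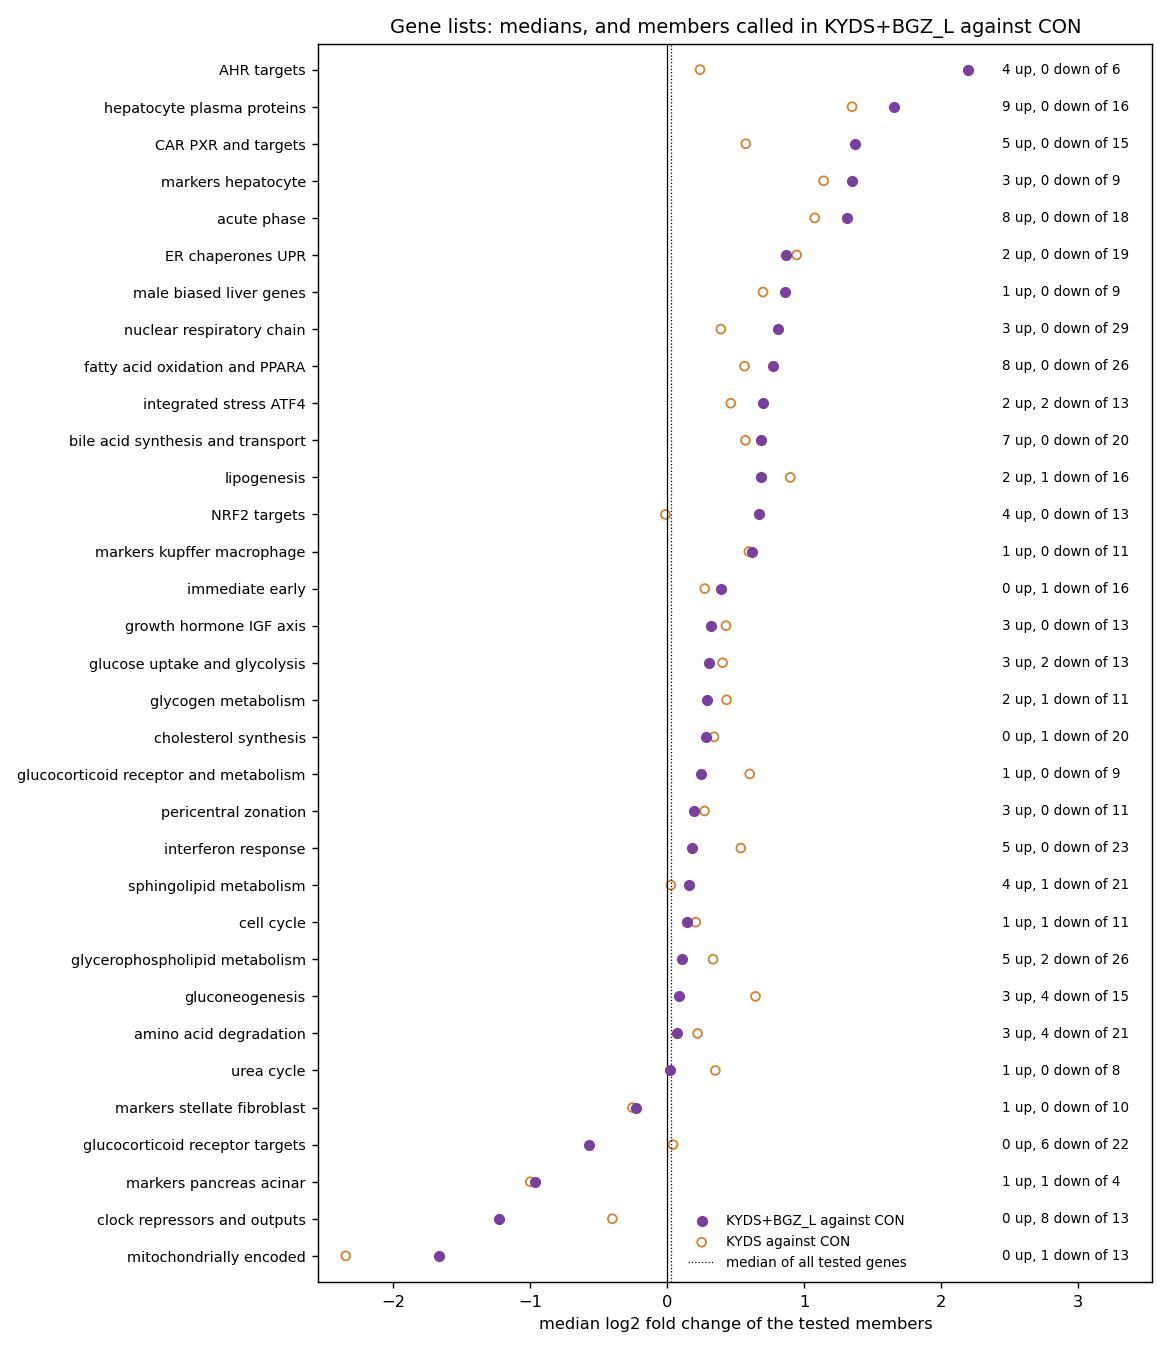
Each row is a gene list with at least 4 tested members and 1 or more called, and points are medians of log2 fold changes of its members, filled for KYDS+BGZ_L against CON and open for KYDS against CON, which share the CON libraries. Members called in KYDS+BGZ_L against CON are printed at the right, and AHR targets (median 2.20) and the mitochondrially encoded genes (median -1.66) stand at the ends.

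Genes of growth, immunity and stress gave smaller counts, where 5.79% of all genes were higher and 5.70% lower. Of 13 genes of the growth hormone axis 3 rose, among them Igf1, at 40.2, 27.5, 34.1, 27.4 and 38.6 in CON and 171, 79.0, 51.9, 166 and 96.1 in KYDS+BGZ_L livers (1.61 ± 0.42, limma adjusted p = 0.0214), and the feedback inhibitor Socs2 (2.31 ± 0.59, 0.0192). The male liver P450 gene Cyp2c11 did not pass (1.06 ± 0.53, 0.192). Of 23 interferon response genes 5 rose, B2m of the class I antigen complex by 1.85 ± 0.39 (0.0076) and the peptide transporter Tap1 by 1.30 ± 0.27 (0.0076). Without KYDS+BGZ_L 1 or 4 the counts of higher genes in these 2 lists were 0 and 2, and without scaling 4 and 9. Both counts were 0 in the balance-adjusted fit, and with TPM over nuclear genes they were 0 and 1. Without CON 2 they were 1 and 3, and the interferon count was also 3 without CON 1, CON 3 or CON 5. Of 13 genes of the ATF4 stress response 2 rose and 2 fell, against 5.79% of all genes higher and 5.70% lower. Without scaling 5 were higher and 0 lower, and the counts were 1 and 0 both without KYDS+BGZ_L 1 and in the balance-adjusted fit. Atf5 went from 38.4, 41.4, 49.6, 23.1 and 36.2 to 203, 131, 109, 189 and 122 (1.98 ± 0.30, limma adjusted p = 7.6e-04), and Ddit3, which encodes the stress factor CHOP, fell by 1.21 ± 0.32 (0.0214). Cdkn1a, the cell cycle inhibitor p21, rose by 2.38 ± 0.45 (0.0045), and the replication helicase subunit Mcm7 fell by 1.25 ± 0.25 (0.0054).

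Of 11 tested endothelial markers 0 passed, of 11 macrophage markers 1 rose (Cd163, 2.04 ± 0.40, limma adjusted p = 0.0056), and of 10 stellate cell and fibroblast markers 1 rose (Pdgfrb, 2.37 ± 0.33, 3.1e-04). Among all genes 5.79% were higher and 5.70% lower. The medians of these lists were 0.03, 0.62 and -0.23 in that order. Of 9 hepatocyte markers 3 rose and 0 fell, with a median of 1.35, and 0 passed in the balance-adjusted fit. The summed scaled TPM of 11 macrophage markers was 68.4 to 114 (median 81.5) in CON and 73.5 to 260.0 (median 115) in KYDS+BGZ_L libraries. Of 13 mitochondrially encoded genes 1 fell (Mt-nd4l, -1.82 ± 0.57, limma adjusted p = 0.0425), with a median of -1.66 over the 13. Of 4 tested markers of pancreatic acinar cells 1 rose (Cela1, 1.65 ± 0.29, limma adjusted p = 0.0028) and 1 fell (Prss1, -1.30 ± 0.38, 0.0356), with a median of -0.96 over the 4. The summed scaled TPM of the 8 matched was 11.4 to 23.4 (median 15.7) in CON and 31.3 to 46.8 (median 37.3) in KYDS+BGZ_L libraries, without overlap. The sum and the median of the fold changes thus went in opposite directions, and the sum was not tested. The sum of 11 markers of motile cilia was 175 in CON 3 and 2.94 to 12.4 in the other controls, and 1.71 to 10.8 in KYDS+BGZ_L libraries. The part of these other cells in the results was not tested. Liver identity was clear from the hepatocyte markers, while 5 of 7 kidney tubule markers were under 0.5 in all 10 libraries.

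Of the genes that the naming rule took, those that fell most varied widely among controls. Myh15, a myosin heavy chain gene, was at 100.4, 102, 487, 52.7 and 72.3 in CON and 0.894, 0.421, 11.8, 0.55 and 0.547 in KYDS+BGZ_L livers (-6.01 ± 1.21, limma adjusted p = 0.0066). Atl1, which encodes a GTPase that shapes the endoplasmic reticulum, was at 107, 104, 552, 53.2 and 73.5 and 1.22, 0.47, 15.96, 1.54 and 1.05 (-5.62 ± 1.34, 0.0151). In both genes CON 3 and KYDS+BGZ_L 3 were the highest of their group, and the CON values of the 2 genes were close in every library. Whether the 2 falls are separate results was not tested. Glra2, a glycine receptor subunit gene, went from 23.0, 26.4, 30.8, 8.61 and 8.61 to 0.0112, 0, 4.32, 0 and 0 (-4.47 ± 0.73, 0.0015). Adamts14, Cdk14, Wasf3, Akr1c19, Zfp366 and Scgb1d4 also fell, by 3.66 to 4.75 log2, and the Scgb1d4 call (limma adjusted p = 0.0382) was lost with 7 of the 10 libraries left out in turn. Hydrocortisone alone gave -4.21 ± 1.21 for Myh15 and -4.73 ± 1.34 for Atl1. Zfp354a, a zinc finger gene, was more even, at 18.1, 7.82, 15.2, 22.9 and 10.7 in CON and 0.615, 0.441, 1.16, 0.346 and 0.461 in KYDS+BGZ_L livers (-3.75 ± 0.52, limma adjusted p = 3.1e-04). Nmrk1, the nicotinamide riboside kinase, went from 25.1, 21.4, 57.7, 11.4 and 16.04 to 1.27, 2.95, 1.92, 0.91 and 2.18 (-3.36 ± 0.40, 6.1e-05).

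Among the largest rises outside the lists, Aqp8, a water and hydrogen peroxide channel, was at 2.45, 2.20, 0.709, 2.17 and 3.40 in CON and 52.3, 9.56, 14.0, 42.2 and 12.7 in KYDS+BGZ_L livers (3.08 ± 0.48, limma adjusted p = 9.3e-04). Slc28a2, a nucleoside transporter, rose by 3.30 ± 0.64 (0.0052) and the kinase gene Nim1k by 3.29 ± 0.40 (7.2e-05). Vom2r37, annotated as a vomeronasal receptor, was at 0.23, 0, 1.06, 1.16 and 0.164 in CON and 15.97, 6.22, 12.8, 16.5 and 11.4 in KYDS+BGZ_L livers (3.77 ± 0.38, 2.0e-05). Gm24289 was listed at 0 in all 5 CON libraries and at 4.39, 55.2, 16.6, 8.39 and 12.1 in KYDS+BGZ_L 1 to 5 (limma adjusted p = 0.0192). Glra2, Zfp354a, Nmrk1, Vom2r37, Aqp8 and Nim1k passed under all alternatives and with each library left out, as did Gckr and Kynu.

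Placed beside the single agents, the combined treatment called more genes against vehicle than hydrocortisone alone, which had 744 (6.27%), 386 higher (3.25%) and 358 lower (3.02%). The 2 comparisons share the CON libraries. The combined count moved with single libraries. It was 387 without KYDS+BGZ_L 4, 401 without KYDS+BGZ_L 1 and 679 without CON 2, while the 744 comes from all libraries. Counts with a library left out are not given for hydrocortisone alone, which shares CON 2. The order of the 2 counts with a library left out is therefore unknown. BGZ_L alone called 0 genes in limma (0.00%), with 715 at an unadjusted p under 0.05. Directly against KYDS, 15 genes passed (0.126%), of which 7 were higher (0.0590%) and 8 lower (0.0674%). At an unadjusted p under 0.05 there were 405. Besides the clock genes, Cyp1a1, Cyp1a2, Nqo1, Thrsp, Tat and Sds, they included Anxa7, an annexin gene (higher by 1.61 ± 0.25, limma adjusted p = 0.0088), the biliverdin reductase gene Blvrb (1.20 ± 0.23, 0.0417), Mk1 (1.37 ± 0.23, 0.017), a gene with a provisional name and, on the lower side, the endoplasmic reticulum stress gene Herpud1 (-1.81 ± 0.33, 0.0272). Anxa7, Blvrb, Mk1 and Herpud1 were chosen after their values were seen. The count was 6 without KYDS 2, KYDS+BGZ_L 1 or KYDS+BGZ_L 4, 8 without KYDS+BGZ_L 3 or 5, and 4 without scaling. A test of the interaction, whether BGZ_L acted differently with and without hydrocortisone, called 3 genes (0.0253%), Dipk2a higher (0.00843%), and Dbp and Nr1d1 lower (0.0169%). Against BGZ_L alone 2062 genes passed (17.4%), 1047 higher (8.82%) and 1015 lower (8.55%), and the count was 1137 without KYDS+BGZ_L 1, 1105 without KYDS+BGZ_L 4, 1333 without BGZ_L 3 and 669 in the balance-adjusted fit.

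**Figure D5:**
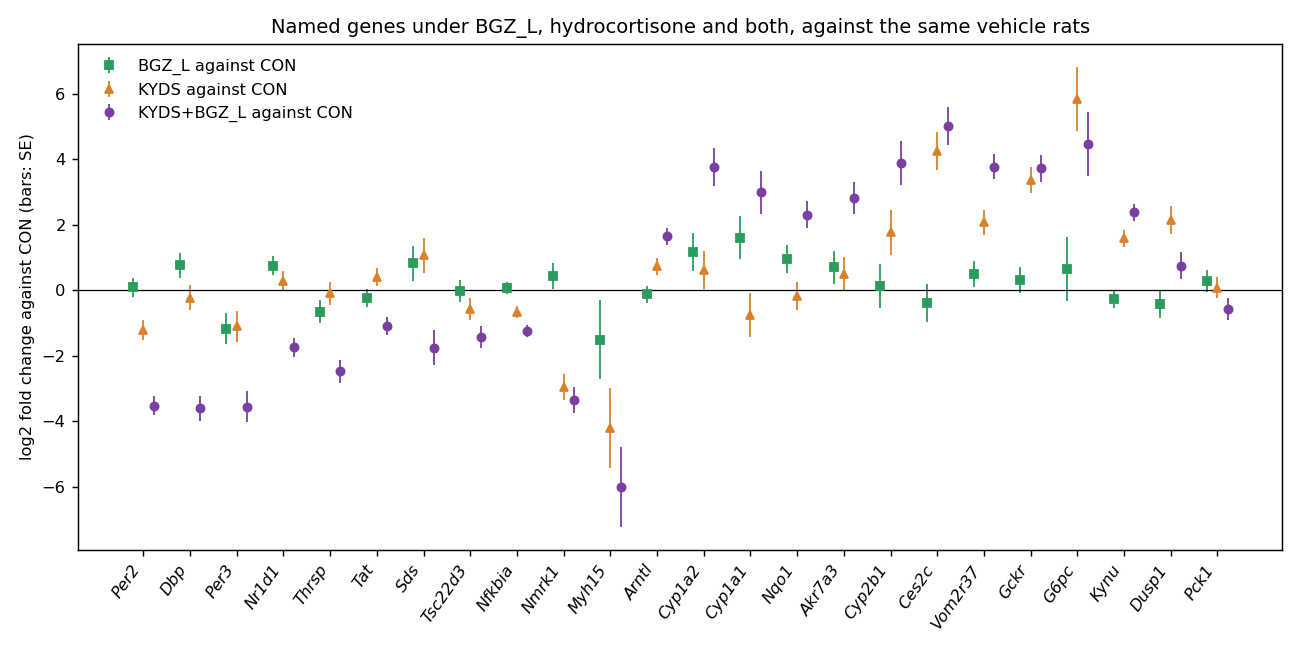
Log2 fold changes against CON with SE bars (n = 5 rats per group) for 24 genes under BGZ_L (squares), hydrocortisone (triangles) and both (circles), all set against the same 5 CON libraries. The plotted fold changes of Per2, Dbp, Per3, Nr1d1 and Thrsp are lower with both agents than with either alone, and those of Cyp1a2, Cyp1a1 and Nqo1 are higher, though Cyp1a1 did not pass against BGZ_L alone.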

How the data were processed

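RNA of 20 rat livers was sequenced, and 10 libraries (5 CON, 5 KYDS+BGZ_L) carry this comparison. Per the labels, Trizol RNA was treated with DNase I, made into TruSeq libraries and sequenced in pairs, with only read 1 used by the authors. The submitters' processing notes name the mouse builds GRCm38, mm10 and GRCm39, but the identifiers are rat Ensembl genes. The sources used here name no aligner or counter. The authors' deposited file is called raw counts, but its values have 2 decimals and sum to 914343 to 983962 per library, so they were read as TPM. Read depth is therefore unknown, and no interval or floor was computed.

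TPM were scaled by an unweighted trimmed mean of log ratios (trimming 30% of ratios and 5% of levels on either side). The 11869 genes that reached 0.5 scaled TPM in 5 or more libraries were fitted on log2(scaled TPM + 0.5) in 1 limma model of the 4 group means (trended, robust prior, 16 residual degrees of freedom). Contrasts were two-sided, with Benjamini-Hochberg adjustment and a threshold of 0.05. For library measures, a two-sided exact permutation p was computed (smallest possible 0.00794). The code was tested on simulated data.

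Of 669 entries in 44 gene lists, 31 were not matched and 88 were below the filter. Where identifiers shared a symbol, the most abundant was used. Members, lists and rules were chosen with earlier results of these data known. Genes were named by rule: the 10 largest rises and 10 largest falls among called genes whose mean log2 value reached 1, which had 1 identifier and no provisional symbol, and whose groups did not overlap; the 2 members per list and direction with the smallest adjusted p; the 10 largest among genes called under every alternative; and 25 genes of liver and glucocorticoid biology. Alternatives covered scaling, filter, added constant, libraries, covariate, array weights and the replicate block. No 2 libraries had identical values (highest correlation 0.978). Some items are not reported here. Promoters came from RefSeq tables of GRCr8. Tools were R 4.3.3, limma 3.58.1, Python 3.11.15 and matplotlib 3.10.9.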

Additional observations from a re-analysis of the deposited data

Results flagged for a closer look

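The effect of BGZ_L differed between rats with and without hydrocortisone for 3 of 11869 genes by a test of the interaction in limma, with 447 at an unadjusted p under 0.05. For Dbp the difference was -4.14 ± 0.54 log2 (adjusted p = 0.0031), for Nr1d1 -2.78 ± 0.42 (0.0112) and for Dipk2a, chosen after its values were seen, 1.83 ± 0.31 (0.0335). Per2 did not pass (-2.39 ± 0.42, adjusted p = 0.0505).

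Single libraries stood apart in 14 of 210 groups of 5 checked, where chance gives about 1 in 20. Each had a gap to its nearest neighbour of over 0.71 of the group's range on the log2 scale. KYDS+BGZ_L 3 was high for Glra2 (4.32 scaled TPM, next 0.0112), Myh15 (11.8, next 0.894) and Atl1 (15.96, next 1.54), and low for Pygl (8.96) and Fgf21 (3.43). Among the other treated livers, KYDS+BGZ_L 5 was high for Ciart (0.0703), KYDS+BGZ_L 1 for Herpud1 (11.8) and KYDS+BGZ_L 4 low for Cpt1a (9.24). Among controls, CON 4 was high for G6pc (22.7, next 0.236), CON 3 for Ldha (32.6) and Cyp2c11 (94.5) and low for Orm1 (69.9), CON 2 high for Mcm7 (11.5) and CON 1 for Pdgfrb (4.42).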

How the results depend on the processing

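The count of 1364 genes (687 higher, 677 lower) kept to within 1.5 times under median-ratio scaling, both other constants, a filter at 1, 10 libraries only, array weights and the replicate block. It was 366 (126 higher, 240 lower) with TPM over nuclear genes, 877 (447 and 430) with no filter, 89 (53 and 36) adjusted for the log2 balance of nuclear and mitochondrial TPM, and 762 (348 and 414) without CON 2 and BGZ_L 3, an alternative chosen after seeing the data. No scaling gave 1565 higher and 88 lower. Leaving out 1 library at a time gave 387 to 1611 genes, 183 to 844 higher and 204 to 767 lower. KYDS+BGZ_L against KYDS had 15 genes, 4 with no scaling and 6 to 16 with a library left out. KYDS+BGZ_L against BGZ_L had 2062, with 900 over nuclear genes, 669 in the balance-adjusted fit and 1105 to 2526 with a library left out. These left-out libraries and covariates of the last 2 comparisons were chosen after seeing the data. The difference in mitochondrial share ran from -31.5 to -20.6 points (10 of 10 past the threshold) and that in scaling factor from 0.385 to 0.643 (1 of 10 past). The fold change of Phkg2 reversed to 0.033 with no scaling. Among single genes described or chosen by rule, calls were lost for 27 with no scaling and for 73 in the balance-adjusted fit. TPM keep no depth, so limits of detection are unknown. The cause of these changes was not tested.

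No pairing of the rats by the replicate numbers of the labels was seen, though a pairing could have gone unseen. Of 5 correlations between same-numbered libraries 1 was above 0.1 (-0.064 to 0.142), and 1 of 5 libraries matched its own number best. With the replicate block 1160 genes passed, 565 higher and 595 lower.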
